A study of Mus musculus with 6 samples.

Results

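The proteasome genes of mouse Th17 cells were followed in control cultures and in cultures labelled as knockout for pyruvate dehydrogenase (PDH). PDH is the mitochondrial complex that makes acetyl-CoA from pyruvate. The members are every gene in the count table whose symbol starts with Psma, Psmb, Psmc, Psmd, Psme, Psmf or Psmg and a digit, without pseudogene symbols ending in -ps. This rule takes 49 of the 15452 genes in the table and uses no measured value. By role they are 14 subunits of the core particle, 17 subunits of the 19S regulatory particle, 5 immunoproteasome genes, 7 assembly chaperones, 3 other activators or inhibitors, the thymic subunit Psmb11, and 2 genes that meet the prefix but encode no subunit or chaperone (Psmc3ip and Psme2b). Psma8 is the only other symbol of this kind in the naming table and had no row in the count table.

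Naive CD4+ T cells from spleen and lymph nodes were cultured for 3 days on plate-bound anti-CD3 (5 µg/mL) with anti-CD28 (1 µg/mL), IL-6 (30 ng/mL), TGFβ (2 ng/mL) and anti-IFNγ (5 µg/mL), conditions that produce Th17 cells, the helper T cells named for interleukin 17. The control group, called WT in the labels, carried floxed PDH alleles (PDHfl/fl) without Cre and gave 3 libraries. The PDH knockout group (PDHfl/fl CD4 Cre+) also gave 3 libraries and carried the same floxed alleles together with CD4 Cre, whose promoter is active in T cells from their development in the thymus onwards. All 6 libraries therefore share the floxed alleles, and Cre is present only in the knockout libraries, so an effect of Cre and an effect of the deletion cannot be told apart. Sample titles spell the locus PHD and genotype labels spell it PDH. The sources used here do not name the floxed gene, the strain or the age of the mice, nor do they say whether replicates came from separate mice. The p-values therefore compare the groups only with the spread among these samples, and that spread may be technical.

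The proteasome is the barrel-shaped protease that degrades ubiquitin-tagged proteins. Its core particle stacks rings of alpha subunits, which gate the entrance, on rings of beta subunits, of which Psmb5, Psmb6 and Psmb7 carry the active sites. The 19S regulatory particle binds ubiquitin chains, removes them, and unfolds the substrate with a ring of ATPases. In lymphocytes and in cells that have seen interferon, the inducible subunits Psmb8, Psmb9 and Psmb10 replace Psmb5, Psmb6 and Psmb7 in newly built particles, and the activator made of Psme1 and Psme2 can cap the barrel, which changes the peptides supplied to MHC class I molecules.

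Library totals ran from 33802154 to 40407124 counts, and every member except Psmb11 and Psme2b had at least 449 counts in each library. The T cell markers Cd3e, Cd3g, Cd4 and Lck were all detected and summed to 1340 to 1380 CPM (counts scaled to a common library size, here by library totals) in WT and 1030 to 1100 CPM in knockout. Cd3g, Cd4 and Lck fell by 0.92, 0.50 and 0.29 on the log2 scale, while Cd3e was at -0.04 with overlapping groups. The Th17 markers Il17a, Il17f, Il23r and Ccr6 were detected and summed to 712 to 959 CPM in WT and 361 to 524 CPM in knockout. Most of this sum was Il17f, and the markers did not move together. Il17a, Il17f and Il23r fell by 1.31, 1.19 and 2.28 on the log2 scale, while Ccr6 rose by 0.83. All 8 B cell markers had rows, and they summed to 5.00 to 25.9 CPM in WT and 4.19 to 79.9 CPM in knockout, raised in WT replicate 2 and knockout replicates 2 and 3. The CD8 T cell markers Cd8a and Cd8b1 summed to 8.68 to 11.3 CPM in WT and 5.58 to 14.9 CPM in knockout, highest in replicate 2 of each group. Cd8b1 fell by 0.625 on the log2 scale, while Cd8a overlapped between groups. Of 6 macrophage and dendritic cell markers 4 had rows, with sums of 5.20 to 17.5 CPM in WT and 1.54 to 4.53 CPM in knockout. Itgax went the other way, by 2.79 on the log2 scale at 1 to 27 counts per library. None of the decreases in Csf1r, Adgre1 and Lyz2 had an adjusted p under 0.05. None of 3 NK cell and 3 red cell markers had a row. In knockout replicate 2, 4.95% of counts fell on an unnamed entry that took 0.080 to 0.215% in the other libraries. Of 3 PDH subunit genes, Pdha1 fell by 0.36 ± 0.06 on the log2 scale in knockout (edgeR adjusted p = 0.000871) and Dlat by 0.68 ± 0.06 (adjusted p = 3.55e-05). Pdhb was at -0.145 ± 0.06 (adjusted p = 0.063). Counts over whole genes cannot tie these changes to a deleted exon.

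Most proteasome genes were lower in knockout cells. Levels below are CPM after TMM scaling of library sizes, changes are log2 fold changes of knockout over WT ± SE, n = 3 libraries per group, and a gene is called when its adjusted p from the edgeR quasi-likelihood test over all tested genes is under 0.05. Of the 49 members, 33 fell (67.3%), where 24.5% of all 15361 tested genes fell. Only Psmf1 and Psmb11 rose (4.1%), where 23.1% of all tested genes did, and 14 members were not called. The median log2 fold change was -0.26 over the members and 0.01 over all tested genes. Changes were small: against a minimum change of 1.2-fold, 12 members fell and 1 rose, next to 12.1% and 13.8% of all tested genes. The 12 were Psma5, Psmb1, Psmb2, Psmb3, Psmb7, Psmb8, Psmc3, Psmd1, Psmd6, Psmd12, Psmd13 and Psmg2, and Psmb8 was the only member to fall by more than 2-fold. Upper-quartile scaling raised the share of increases among all called genes from 48.53 to 59.95%. It left 24 members lower, next to 19.1% of all tested genes. Higher under it were 2 members, where 4382 of 15361 tested genes were higher. The 9 decreases not called under it were Psma6, Psmb4, Psmb6, Psmc3ip, Psmd11, Psmd14, Psme3, Psme4 and Psmg1.

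The replicate libraries held the member levels in a recurring order. In 37 of 49 members the groups did not overlap (75.5%, against 58.2% of all tested genes), with all knockout values below all WT values in 35 and above them in 2. WT replicate 2 held the highest WT value in 40 members, and knockout replicate 3 the lowest knockout value in 30. These places were not counted over all tested genes, so the order may not be particular to the members. WT replicate 2 is also the WT library with raised B cell markers, and the part of those cells in its higher proteasome levels was not tested. Without that library 28 members fell, next to 23.6% of all tested genes. Leaving out each library in turn gave 24 to 35, next to 18.9 to 23.6% of all tested genes. Without all 3 libraries with raised B cell markers 19 fell, in a fit where 18.6% of all tested genes fell. Of the 33 decreases 18 were still called there, and Psme1 was added. The 15 not called were Psma2, Psma7, Psmb4, Psmb5, Psmb6, Psmc4, Psmd2, Psmd3, Psmd11, Psmd14, Psme3, Psme4, Psmg1, Psmd5 and Psmc3ip. Knockout replicate 1 is then the lone library of its group and is assumed to vary like the WT libraries. In bulk RNA, fewer cells of a type and less RNA per cell cannot be told apart.

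**Figure D1:**
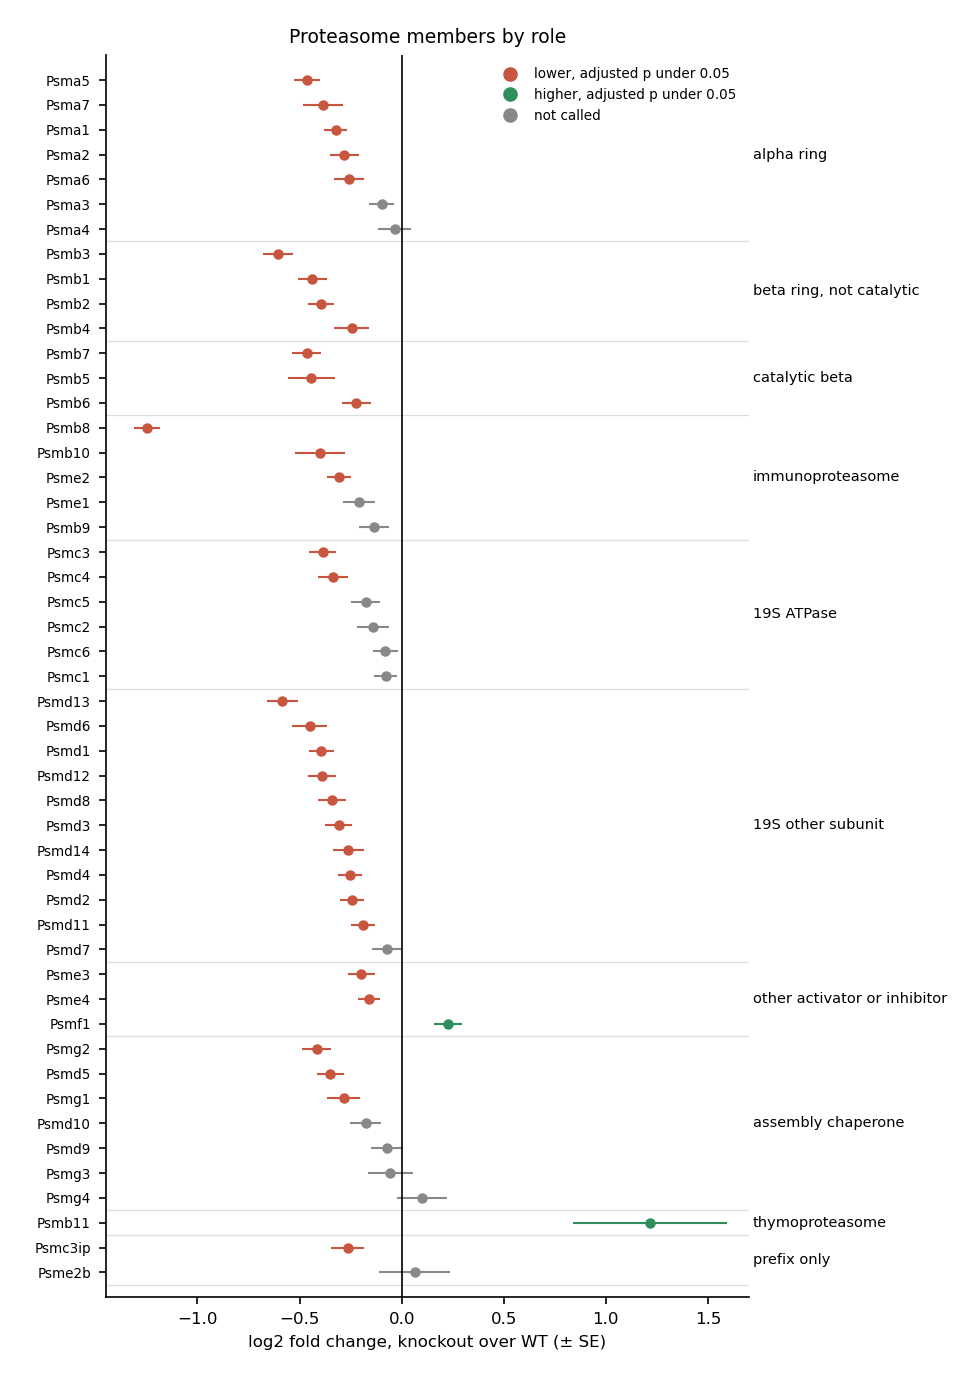
Log2 fold change of knockout over WT (x axis, bars are ± SE of the edgeR fit, 3 libraries per group) for each of the 49 members, in blocks by role. Psmb8 sits far to the left at -1.25, most other subunits lie between -0.6 and 0, and Psmf1 and Psmb11 are the 2 called members on the right.

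**Figure D2:**
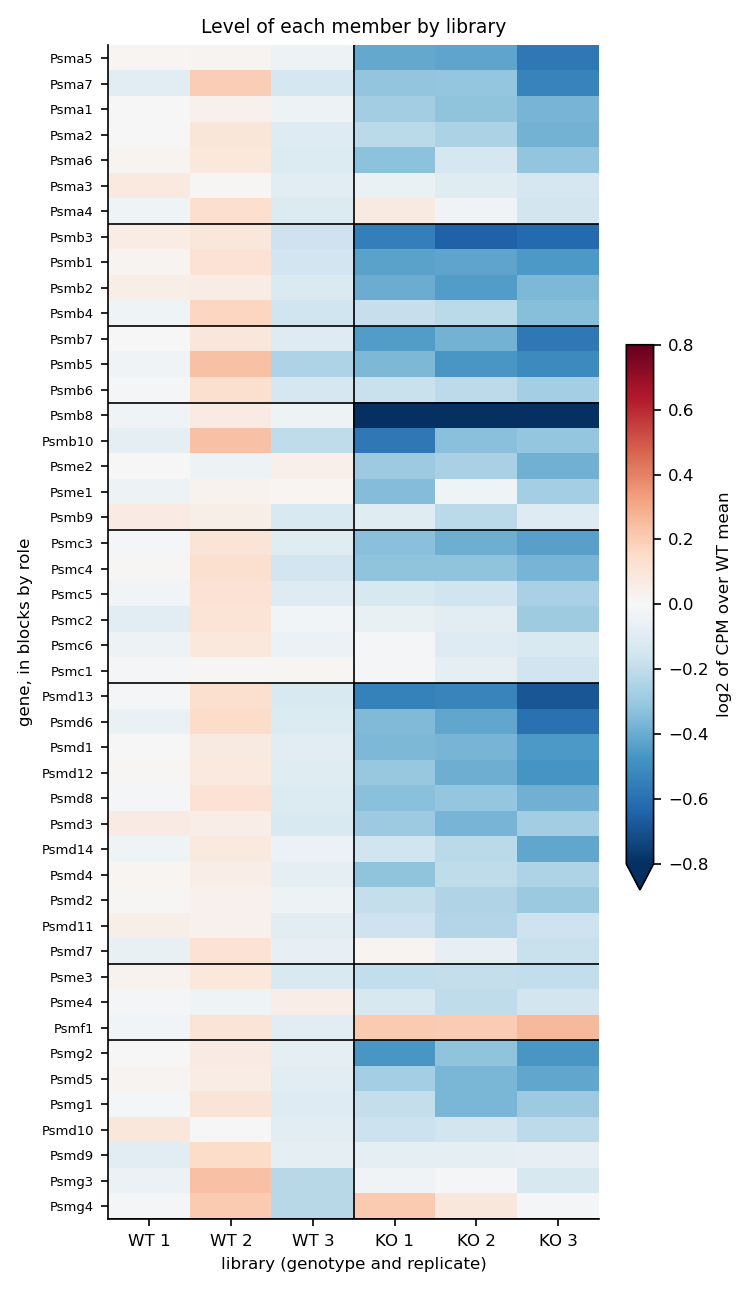
Level of each subunit, activator and chaperone in each library, as the log2 of its CPM over the WT mean of the gene (colour, values below -0.8 share the darkest blue). The 3 knockout columns are blue in most rows, WT replicate 2 is the reddest WT column, and Psmf1 is red in all knockout libraries.

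In the core particle 12 of 14 subunits fell (85.7%, against 24.5% of all tested genes), none rose, and the median log2 fold change was -0.35. The CPM summed over the 14 genes were 2491, 2677 and 2293 in WT replicates 1 to 3 and 2064, 2037 and 1904 in knockout replicates 1 to 3, a mean decrease of 19.5% with no overlap between the groups. Per kilobase of transcript, the WT means of these genes lay between 58.8 and 206 CPM per kb. Transcript lengths are those of the longest principal transcript in GENCODE M21. The release used upstream is not given, and 314 gene IDs of the count table had no match in M21.

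Of the 7 alpha ring genes, which form the outer rings and the gate, 5 fell (71.4%, against 24.5% of all tested genes). Psma5 was at 142, 143 and 137 CPM in WT replicates 1 to 3 and 106, 105 and 94.6 CPM in knockout replicates 1 to 3, the order used throughout (-0.46 ± 0.06, adjusted p = 0.000339). Psma1 was at 210, 215 and 204 CPM against 173, 168 and 162 CPM (-0.32 ± 0.06, adjusted p = 0.00121). For both, the lowest WT library stood well above the highest knockout library. Psma2 was at 250, 269 and 234 CPM in WT and 216, 211 and 193 CPM in knockout (-0.28 ± 0.07, adjusted p = 0.00929), and Psma7 at 178, 216 and 171 CPM and 151, 152 and 130 CPM (-0.38 ± 0.10, adjusted p = 0.0108). WT replicate 2 was the high WT library in this pair, and without the 3 libraries with raised B cell markers neither Psma2 (-0.16, adjusted p = 0.158) nor Psma7 (-0.21, adjusted p = 0.0688) was called. Psma6 also fell, by 0.26 on the log2 scale, and lost its call without WT replicate 1 or without knockout replicate 1 or 3 (adjusted p from 0.0542 to 0.0636). The remaining alpha genes overlapped between groups. Psma3 was at 176, 168 and 157 CPM and 161, 156 and 152 CPM (-0.10 ± 0.06, adjusted p = 0.214), and Psma4 at 214, 241 and 203 CPM and 231, 215 and 198 CPM (-0.03 ± 0.08, adjusted p = 0.76).

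All 4 beta ring genes without an active site fell, where 24.5% of all tested genes did. Psmb3 showed the largest decrease of any constitutive core subunit, from 145, 148 and 124 CPM to 95.3, 88.7 and 90.2 CPM (-0.60 ± 0.07, adjusted p = 0.000213). Every knockout library lay well below the lowest WT library. Psmb1 went from 208, 222 and 184 CPM to 152, 153 and 149 CPM (-0.44 ± 0.07, adjusted p = 0.000976), and Psmb2 from 154, 155 and 137 CPM to 113, 109 and 116 CPM (-0.40 ± 0.07, adjusted p = 0.000984). In each of these genes the knockout libraries lay close to each other. Psmb4, at 171, 197 and 157 CPM against 154, 151 and 138 CPM (-0.24 ± 0.09, adjusted p = 0.038), kept its call only when WT replicate 3 was the library left out. Leaving out any other library gave an adjusted p from 0.051 to 0.131, and without WT replicate 2 its change was -0.15. Psmb4 was also not called with upper-quartile factors (adjusted p = 0.101), library totals (adjusted p = 0.0587), limma-voom (adjusted p = 0.0554) or a filter of 50 counts in 3 libraries (adjusted p = 0.0662), and without the 3 libraries with raised B cell markers it was at -0.09 (adjusted p = 0.422).

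The 3 constitutive catalytic subunits all fell, where 24.5% of all tested genes did. Psmb7, the subunit with trypsin-like activity, was at 186, 198 and 173 CPM in WT and 136, 143 and 125 CPM in knockout (-0.47 ± 0.07, adjusted p = 0.000697). Psmb5, which carries the chymotrypsin-like site and is the main target of proteasome inhibitor drugs, was at 128, 154 and 110 CPM and 102, 94.6 and 91.6 CPM (-0.44 ± 0.12, adjusted p = 0.0136). Its WT libraries were spread widely, with WT replicate 3 only slightly above knockout replicate 1. Without knockout replicate 3 the call was lost (-0.41, adjusted p = 0.0538), and without WT replicate 2 the change was -0.31. Without the 3 libraries with raised B cell markers Psmb5 was at -0.21 (adjusted p = 0.141) and Psmb6 at -0.11 (adjusted p = 0.344). Psmb6, with caspase-like activity, moved least, from 143, 157 and 131 CPM to 127, 124 and 119 CPM (-0.22 ± 0.07, adjusted p = 0.028). It was not called without WT replicate 1 or 2 or knockout replicate 2 or 3 (adjusted p from 0.0663 to 0.0961), nor with upper-quartile factors or library totals as the scaling (adjusted p = 0.0916 and 0.0583).

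Among the 5 immunoproteasome genes 3 fell (60%, against 24.5% of all tested genes) and none rose, and the sizes of the changes differed widely. Psmb8, the inducible counterpart of Psmb5, was at 253, 270 and 250 CPM in WT and 105, 116 and 105 CPM in knockout (-1.25 ± 0.06, adjusted p = 4.37e-06). The knockout libraries lay close together and far below the WT libraries, a mean decrease of 57.9%. Only 1.88% of all tested genes had a log2 fold change as low or lower. The change stayed between -1.30 and -1.17 in all 17 alternatives tried, and it was -1.26 without the 3 libraries with raised B cell markers.

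The estimates for the other inducible catalytic subunits were smaller, and only Psmb10 was called. Psmb9, the counterpart of Psmb6, was at 55.8, 55.1 and 49.0 CPM in WT and 49.9, 45.9 and 49.6 CPM in knockout, overlapping groups (-0.14 ± 0.07, adjusted p = 0.143), and was called lower only without WT replicate 3 (-0.19, adjusted p = 0.0436). Psmb10, the counterpart of Psmb7, was at 24.9, 30.8 and 22.7 CPM and 17.6, 20.7 and 21.1 CPM (-0.40 ± 0.12, adjusted p = 0.0224). Its groups lay close together, and the call was lost without WT replicate 2 (-0.26, adjusted p = 0.0596) or knockout replicate 1 (-0.32, adjusted p = 0.0718).

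The activator genes Psme1 and Psme2 encode the alternating subunits of the PA28 cap. Psme2 fell from 170, 165 and 175 CPM to 139, 142 and 130 CPM (-0.31 ± 0.06, adjusted p = 0.00209), with all knockout libraries lower. Psme1 was at 184, 193 and 191 CPM and 149, 185 and 157 CPM (-0.21 ± 0.08, adjusted p = 0.0542), where knockout replicate 2 alone reached the WT range. It was called lower without that library (-0.31, adjusted p = 0.00696), without the 3 libraries with raised B cell markers (-0.33, adjusted p = 0.0121) and by DESeq2 (adjusted p = 0.0407).

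Ratios of inducible to constitutive partner within a library do not depend on the scaling between libraries. The log2 ratio of Psmb8 to Psmb5 was 0.99, 0.81 and 1.19 in WT replicates 1 to 3 and 0.04, 0.29 and 0.20 in knockout replicates 1 to 3. The groups were fully apart, and the mean ratio fell by 43.3% (difference -0.82 on the log2 scale, exact two-sided permutation p = 0.1, the smallest that 3 against 3 libraries allow, adjusted p = 0.3 over the 3 ratios). The log2 ratio of Psmb9 to Psmb6 was -1.36, -1.51 and -1.42 in WT and -1.35, -1.43 and -1.26 in knockout (difference 0.08, exact permutation p = 0.3, adjusted p = 0.45). That of Psmb10 to Psmb7 was -2.91, -2.68 and -2.93 in WT and -2.95, -2.78 and -2.56 in knockout (difference 0.08, exact permutation p = 0.7, adjusted p = 0.7). These last ratios overlapped between the groups. Per kilobase of transcript, WT cells held 158 CPM per kb of Psmb8 and 145 of Psmb5, and knockout cells 66.7 and 107, while Psmb9 (39.4 and 35.9) stayed far under Psmb6 (180 and 154), and Psmb10 (19.9 and 15.1) far under Psmb7 (160 and 116), in both groups.

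**Figure D3:**
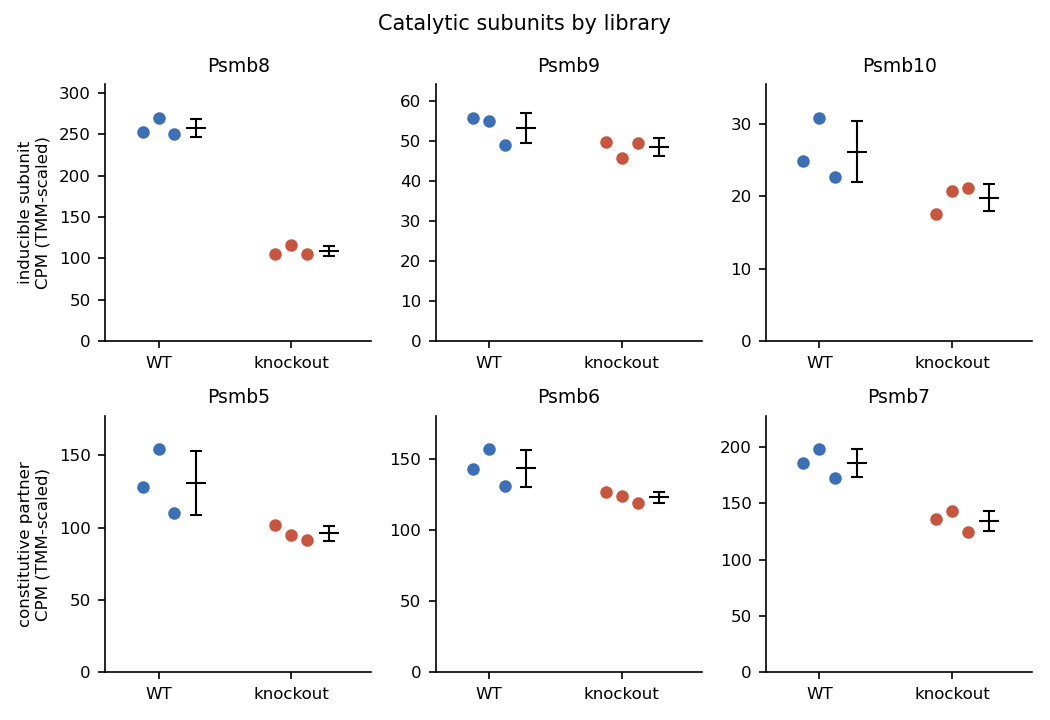
CPM of the inducible catalytic subunits (top) and of the constitutive partner each replaces (bottom) in 3 WT (blue) and 3 knockout (red) libraries, with mean and SD in black and axes starting at 0. Psmb8 drops from 250 CPM or more to 116 CPM or less, while Psmb9 overlaps between groups, Psmb6 fell by 14.3%, Psmb5 fell by 26.4% and Psmb7 fell by 27.6%.

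Psmb8 lies in the MHC class II region of chromosome 17 in a row of antigen-processing genes, in the order Psmb9, Tap1, Psmb8 and Tap2. Tap1 and Tap2 encode the transporter that carries proteasome products into the endoplasmic reticulum. These neighbours were chosen for description after the value of Psmb8 was seen. Tap1 was at 129, 130 and 119 CPM in WT and 107, 131 and 130 CPM in knockout (-0.04 ± 0.08, adjusted p = 0.683), overlapping groups. Tap2 fell from 122, 135 and 118 CPM to 89.9, 104 and 98.4 CPM (-0.36 ± 0.07, adjusted p = 0.00308), with every knockout library lower. Within libraries the mean log2 ratio of Psmb8 to each neighbour was lower in knockout, with a difference of -1.11 against Psmb9, -1.198 against Tap1 and -0.886 against Tap2. An annotated antisense gene that overlaps Psmb8, Gm20496, had no row in the table. The library kit is stranded, but the sources used here do not say whether counting used the strand.

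**Figure D4:**
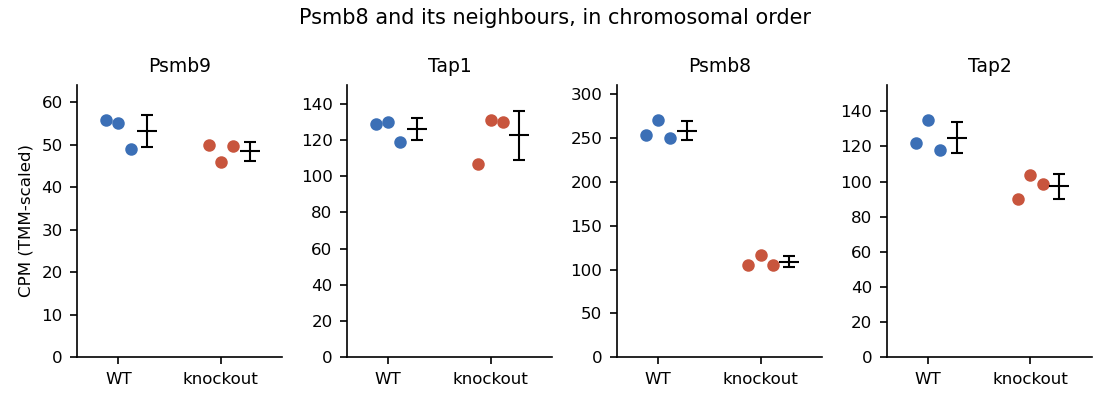
CPM of Psmb9, Tap1, Psmb8 and Tap2, in their order along the chromosome, in 3 WT (blue) and 3 knockout (red) libraries, with mean and SD in black and axes starting at 0. Psmb8 is the gene whose groups lie farthest apart, Tap2 shows a smaller gap, and Psmb9 and Tap1 overlap.

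Promoter windows of 300 bases (250 before and 50 after the RefSeq start, GRCm38.p6) are shown for this pair of neighbours that differed, Psmb8 (chr17:34197945-34198244, plus strand) and Psmb9 (chr17:34187281-34187580, minus strand), and for the core subunits with the largest and the smallest change, Psmb3 (chr11:97703184-97703483, plus strand) and Psma4 (chr9:54950609-54950908, plus strand). Capitals mark matches to any of 4 motifs.
Psmb8: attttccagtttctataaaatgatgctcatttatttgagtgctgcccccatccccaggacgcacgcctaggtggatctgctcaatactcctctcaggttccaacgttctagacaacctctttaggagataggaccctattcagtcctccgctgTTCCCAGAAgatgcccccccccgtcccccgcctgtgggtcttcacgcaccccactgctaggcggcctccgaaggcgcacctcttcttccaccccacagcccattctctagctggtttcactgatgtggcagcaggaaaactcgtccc
Psmb9: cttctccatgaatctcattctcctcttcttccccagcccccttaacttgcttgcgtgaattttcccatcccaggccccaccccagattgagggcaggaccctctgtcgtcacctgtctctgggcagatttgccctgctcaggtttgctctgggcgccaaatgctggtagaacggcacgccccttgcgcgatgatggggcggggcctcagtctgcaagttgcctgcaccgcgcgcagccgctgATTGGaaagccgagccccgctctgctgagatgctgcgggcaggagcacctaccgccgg
Psmb3: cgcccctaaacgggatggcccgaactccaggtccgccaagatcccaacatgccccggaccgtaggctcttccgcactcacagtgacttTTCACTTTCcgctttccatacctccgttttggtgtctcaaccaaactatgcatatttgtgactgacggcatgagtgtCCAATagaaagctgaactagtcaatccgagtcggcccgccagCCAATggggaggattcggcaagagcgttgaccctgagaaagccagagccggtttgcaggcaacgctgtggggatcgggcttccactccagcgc
Psma4: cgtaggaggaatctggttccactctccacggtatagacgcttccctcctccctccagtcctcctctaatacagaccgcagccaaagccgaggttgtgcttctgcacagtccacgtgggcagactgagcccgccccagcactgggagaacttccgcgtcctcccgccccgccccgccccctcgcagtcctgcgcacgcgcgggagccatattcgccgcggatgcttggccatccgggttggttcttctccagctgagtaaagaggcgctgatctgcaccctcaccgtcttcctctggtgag
The motifs, searched on both strands, were TGACNNNGC (core of the antioxidant response element bound by NFE2L1 and NFE2L2), GAAANNGAA (core of the interferon response element), TTCNNNGAA (the gamma-activated site of interferon-responsive genes) and CCAAT (the box bound by NF-Y). The Psmb8 window held 1 match, to the gamma-activated site, starting at position -97 from the start. The Psmb9 window held 1 CCAAT match on the opposite strand at -8. The Psmb3 window held CCAAT at -85 and -43 and an interferon response core on the opposite strand at -162, and the Psma4 window held none of the 4, and no matches in these windows overlapped one another. Of 49 members 42 had a window, and a gene was counted when any of its windows matched. The background is counted by window, so a member with several windows had more chances to match. A match to TGACNNNGC was in 6 of the 42 (14.3%, against 12.4% of all 32851 windows in the RefSeq table), to GAAANNGAA in 7 (16.7% against 8.6%), to TTCNNNGAA in 3 (7.1% against 8.3%) and to CCAAT in 15 (35.7% against 37.4%). Psmb1, Psmb2, Psmb7, Psmc3, Psmd3, Psmd7 and Psmg2 had no entry.

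In the 19S particle 12 of 17 genes fell (70.6%, against 24.5% of all tested genes), none rose, and the median log2 fold change was -0.26. The summed CPM were 3180, 3383 and 3036 in WT and 2750, 2679 and 2550 in knockout, a mean decrease of 16.9% with no overlap. The log2 ratio of summed 19S to summed core counts ranged from 0.34 to 0.41 in WT and from 0.40 to 0.42 in knockout, overlapping ranges.

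Of the 6 ATPase genes 2 fell (33.3%, near the 24.5% of all tested genes), with a median of -0.16. Of the 11 other 19S subunits 10 fell (90.9%), with a median of -0.31. The difference between these roles was not tested. Psmc3, an ATPase of the unfolding ring, was at 187, 203 and 177 CPM in WT and 150, 144 and 140 CPM in knockout (-0.39 ± 0.07, adjusted p = 0.00118). Psmc4 was at 159, 172 and 142 CPM and 126, 126 and 122 CPM (-0.34 ± 0.07, adjusted p = 0.00427). For both ATPases the knockout values were tightly grouped below the WT values, and Psmc4 was not called without the 3 libraries with raised B cell markers (adjusted p = 0.0644). The uncalled ATPases with the largest p were Psmc6, at 185, 202 and 184 CPM against 188, 177 and 175 CPM (-0.08 ± 0.06, adjusted p = 0.298), and Psmc1, at 183, 186 and 186 CPM against 183, 176 and 166 CPM (-0.08 ± 0.06, adjusted p = 0.283). Psmc2 and Psmc5 were at -0.14 and -0.18 (adjusted p = 0.166 and 0.0619), and Psmc5 was called without WT replicate 3 (adjusted p = 0.0307).

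Of the scaffold, lid and receptor subunits, Psmd13 changed most. This lid subunit was at 167, 184 and 155 CPM in WT and 116, 117 and 105 CPM in knockout (-0.58 ± 0.08, adjusted p = 0.000297). Psmd6, also of the lid, was at 108, 124 and 104 CPM and 87.8, 83.9 and 74.0 CPM (-0.45 ± 0.09, adjusted p = 0.00223). The lid cleaves ubiquitin chains from the substrate, and both genes were lower in every knockout library. Psmd1, the large scaffold of the base, was at 247, 259 and 232 CPM and 192, 190 and 179 CPM (-0.39 ± 0.06, adjusted p = 0.000771). Psmd12 of the lid was at 144, 151 and 134 CPM and 116, 109 and 103 CPM (-0.39 ± 0.07, adjusted p = 0.0013). Again no library crossed between the groups. Psmd2, Psmd3, Psmd4, Psmd8, Psmd11 and Psmd14 fell by 0.19 to 0.34 on the log2 scale. Psmd14 encodes the deubiquitinase of the lid and Psmd4 a ubiquitin receptor. Psmd14 lost its call without knockout replicate 3 (adjusted p = 0.0595), and Psmd11 without WT replicate 1 or knockout replicate 2 or 3 (adjusted p from 0.0525 to 0.106). With upper-quartile factors neither Psmd14 (adjusted p = 0.0562) nor Psmd11 (adjusted p = 0.127) was called, and Psmd11 was not called with library totals (adjusted p = 0.0979). Psmd7, the partner of Psmd14 in the lid, was at 172, 194 and 171 CPM and 182, 171 and 158 CPM (-0.07 ± 0.07, adjusted p = 0.449), with overlapping groups.

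The remaining regulators moved little and in both directions. Psmf1 encodes PI31, a protein first described as a proteasome inhibitor. It was at 43.0, 47.0 and 41.1 CPM in WT and 50.6, 50.3 and 52.3 CPM in knockout (0.22 ± 0.07, adjusted p = 0.0214), every knockout library above every WT library. Its call held only when WT replicate 2 was the library left out, and was lost with any other (adjusted p from 0.0505 to 0.0825). Psme3, which encodes the nuclear activator PA28 gamma, was at 324, 337 and 292 CPM and 277, 278 and 277 CPM (-0.20 ± 0.07, adjusted p = 0.0311), and Psme4, which encodes the activator PA200, at 147, 145 and 154 CPM and 136, 129 and 134 CPM (-0.16 ± 0.06, adjusted p = 0.0363). The calls of both rested on particular libraries: Psme3 lost its call unless WT replicate 3 was the library left out (adjusted p from 0.068 to 0.108), and Psme4 lost it without WT replicate 1 or 3 or knockout replicate 2 or 3 (adjusted p from 0.0774 to 0.117). Scaling by upper quartiles ended the calls of Psme3 (adjusted p = 0.124) and Psme4 (adjusted p = 0.275), as did library totals (adjusted p = 0.0854 and 0.189).

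Of the 7 assembly chaperone genes 3 fell (42.9%, against 24.5% of all tested genes), none rose, and the median was -0.17. Psmg1 and Psmg2 encode a heterodimer that starts the alpha ring, and both fell. Psmg2 was at 44.4, 46.3 and 42.1 CPM in WT and 32.0, 35.4 and 32.1 CPM in knockout (-0.42 ± 0.07, adjusted p = 0.00125). Psmg1 was at 33.9, 36.8 and 31.9 CPM and 30.0, 26.5 and 27.9 CPM (-0.28 ± 0.08, adjusted p = 0.0168), and lost its call without knockout replicate 2 or 3 (adjusted p = 0.065 and 0.0529). The second alpha ring heterodimer, of Psmg3 and Psmg4, did not pass. Psmg3 was at 25.7, 31.2 and 22.8 CPM and 26.0, 26.3 and 24.3 CPM (-0.06 ± 0.11, adjusted p = 0.71), and Psmg4 at 12.8, 15.0 and 11.1 CPM and 15.0, 13.8 and 12.8 CPM (0.10 ± 0.12, adjusted p = 0.535). For both, the knockout values lay within the WT range.

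The chaperones of the 19S base are Psmd5, Psmd9 and Psmd10, which hold ATPases apart until the ring closes. Psmd5 was at 62.3, 63.9 and 57.5 CPM and 50.7, 47.5 and 46.0 CPM (-0.35 ± 0.07, adjusted p = 0.00233), without overlap, and was not called without the 3 libraries with raised B cell markers (adjusted p = 0.071). Psmd10, also known as gankyrin, was at 27.7, 26.0 and 24.4 CPM and 23.1, 23.5 and 22.5 CPM (-0.17 ± 0.08, adjusted p = 0.0828), and was called without WT replicate 3 (adjusted p = 0.0498). Psmd9 was at 30.4, 35.6 and 30.5 CPM and 30.5, 30.5 and 30.7 CPM (-0.07 ± 0.08, adjusted p = 0.482), where only WT replicate 2 stood out. Per kilobase of transcript the chaperones reached at most 41.8 CPM per kb in WT, below the lowest core or 19S subunit at 54.4.

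Psmb11 encodes the catalytic subunit of the thymoproteasome, known from the cortical epithelium of the thymus. It was close to the limit of the table, with 11 to 39 counts per library, at 0.351, 0.288 and 0.420 CPM in WT and 0.941, 0.430 and 1.11 CPM in knockout (1.22 ± 0.38, adjusted p = 0.0241). Knockout replicate 2 stood just above WT replicate 3. The call was lost without WT replicate 1 or 2 or knockout replicate 1 or 3 (adjusted p from 0.0596 to 0.101), by DESeq2 (adjusted p = 0.0519) and by limma-voom (adjusted p = 0.0543). Psmc3ip, a meiotic recombination factor named for its binding to an ATPase, fell by 0.26 on the log2 scale (adjusted p = 0.0213). That call was lost without WT replicate 1 or 2 or knockout replicate 2 (adjusted p from 0.0517 to 0.0652). Psme2b, a near copy of Psme2 with which it can share reads, was at 2.46 ± 0.265 and 2.58 ± 0.143 CPM (adjusted p = 0.785).

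Genes that work beside the proteasome were read from 4 lists chosen by function. Of 11 tested proteasome partners 4 fell (36.4%, against 24.5% of all tested genes) and 1 rose (9.1%, against 23.1%), with a median log2 fold change of -0.07. Akirin2, which brings proteasomes into the nucleus, fell from 45.0 ± 1.45 to 34.4 ± 0.514 CPM (-0.39 ± 0.06, adjusted p = 0.000821). Usp14, a deubiquitinase that docks on the 19S particle, fell from 132 ± 3.59 to 112 ± 2.22 CPM (adjusted p = 0.00459), Txnl1, a thioredoxin bound to the proteasome, by 0.28 on the log2 scale, and the ubiquitin receptor gene Adrm1 from 106 ± 10.2 to 89.1 ± 2.25 CPM (adjusted p = 0.0171). The increase, named after its value was seen, was in Ecpas, a proteasome-binding scaffold (0.18 ± 0.06, adjusted p = 0.0386). Pomp, the chaperone of the beta ring, was at 136, 165 and 150 CPM in WT and 171, 166 and 133 CPM in knockout (0.06 ± 0.11, adjusted p = 0.684), with the groups overlapping.

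Of 14 genes for ubiquitin supply, shuttle receptors and the VCP segregase, 4 fell and 3 rose (28.6% and 21.4%), shares near those of all tested genes, with a median log2 fold change of -0.03. The shuttle receptor genes Ubqln1 and Rad23b, whose proteins carry ubiquitin-tagged substrates to the proteasome, were lower in every knockout library. Ubqln1 fell from 191 ± 4.60 to 143 ± 4.31 CPM (-0.41 ± 0.06, adjusted p = 0.000314) and Rad23b by 0.35 on the log2 scale (adjusted p = 0.00347). Ngly1, a deglycosylase known to process the transcription factor NFE2L1, rose from 40.2 ± 0.931 to 57.0 ± 3.81 CPM (0.50 ± 0.07, adjusted p = 0.000345). Ddi2, the protease known to cleave the same factor, rose from 85.5 ± 5.94 to 105 ± 2.51 CPM (0.29 ± 0.06, adjusted p = 0.00439). The polyubiquitin gene Ubb, outside the naming rule and chosen after its value was seen, was at 1010 ± 93.1 and 1040 ± 11.8 CPM (adjusted p = 0.662).

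Among 11 tested regulators of proteasome genes 3 rose and 2 fell (27.3% and 18.2%, against 23.1% and 24.5% of all tested genes), with a median of -0.04. Nfe2l1, which encodes the factor that raises subunit genes when proteasome activity falls, was at 173, 167 and 167 CPM in WT and 206, 168 and 193 CPM in knockout (0.16 ± 0.08, adjusted p = 0.111). Irf1, which encodes an interferon-induced activator of inducible subunit genes, rose from 35.3 ± 1.16 to 55.3 ± 1.87 CPM (0.65 ± 0.06, adjusted p = 5.97e-05), with every knockout library above every WT library. The NF-Y subunit genes Nfyc and Nfya rose by 0.47 and 0.23 (adjusted p = 0.00278 and 0.00764). Nfe2l2, which encodes the factor of the oxidative stress response, fell by 0.25 on the log2 scale (adjusted p = 0.0141). The other decrease, named after its value was seen, was in Irf8 (-0.50).

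In the class I peptide loading list 2 of 11 genes rose and 2 fell (18.2% each, below the shares of all tested genes), with a median of 0.01. The decreases were Tap2 and the chaperone gene Calr, from 538 ± 71.3 to 434 ± 27.4 CPM (adjusted p = 0.0231). The increases were Canx (0.24 ± 0.07, adjusted p = 0.0201) and Tapbpl (0.21 ± 0.07, adjusted p = 0.0417). The class I heavy chain genes H2-K1 and H2-D1, likewise chosen after their values were seen, were at 804 ± 46.8 and 805 ± 21.3 CPM and at 669 ± 41.5 and 676 ± 22.1 CPM, differences within the spread of the libraries.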

How the data were processed

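Stranded mRNA libraries of 6 cultures were analysed from the deposited table of expected counts, estimated reads per gene given as whole numbers. Per the submitters' processing notes, Salmon, DESeq2 and DESeq were used. Versions, genome build and annotation: not given in the sources used here. All 15452 rows of the deposited table reach 10 counts in 3 or more libraries. Gene IDs were matched without version to GENCODE M21 symbols, 15138 of them with success. Transcript quantification can split reads between near copies.

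Counts were used as deposited in edgeR 4.0.16 (R 4.3.3): filterByExpr (91 genes removed), TMM scaling, robust quasi-likelihood fit on genotype, Benjamini-Hochberg adjustment over 15361 genes, threshold 0.05. The biological coefficient of variation was 13.8%. Replicates differed by far more than sampling noise (chi-square per degree of freedom at least 24.05). Knockout replicate 2 differed most, at 153.67 from knockout replicate 1 and 142.84 from knockout replicate 3. The other pairs within a group reached at most 30.1. The fit was checked on simulated counts. Alternatives were other scalings, DESeq2 1.42.0, limma-voom (limma 3.58.1), filters, dispersion, a 1.2-fold threshold, the replicate block and left-out libraries.

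Members and lists were chosen with earlier results of these data known. Named in full were the immunoproteasome genes, their partners, other regulators and chaperones, and per other role up to 4 called genes of smallest p and up to 2 uncalled of largest p. The lists took up to 4 called genes, with Pomp, Adrm1, Nfe2l1 and Tap1. Promoter sequences are from RefSeq, GRCm38.p6. Figures used matplotlib 3.10.9 under Python 3.11.15. A few genes of the marker and pathway lists are not reported here and were left out of the sums and counts of those lists.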

Additional observations from a re-analysis of the deposited data

How the results depend on the processing

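No member changed sign while called in any of the 17 alternatives, and 7 members, none of them called in the edgeR fit as reported, changed sign in some. Of the 33 decreases, 22 were called in all alternatives other than the 1.2-fold threshold and the fit without the 3 libraries raised in B cell markers, and 12 in all 17. Against 1.2-fold, 12 members were lower (5 core, 5 in 19S, 1 immunoproteasome gene, 1 chaperone) and 1 higher. The shares of all tested genes were 12.1% lower and 13.8% higher. A stricter null calls fewer genes by construction. Without the 3 libraries, the core median was -0.24, with only 1 knockout library left. Psmf1 and Psmb11 were the increases. DESeq2, limma-voom and a filter of at least 50 counts in 3 libraries each gave 1 increase, and leaving out each library in turn gave 0 to 1. Psmb11 does not reach that filter. Upper-quartile scaling moved the 19S median to -0.18 and the immunoproteasome median to -0.23. The median of all genes shifted by 0.079 under it, about as far as these medians did. The ratio of Psmb10 to Psmb7 differed between groups by -0.026 to 0.167 when each library was left out, reversed without knockout replicate 3 (-0.026). With the replicate block, 34 members were lower, next to 24.4% of all tested genes. Psme1 and Psmc5 were then called (adjusted p = 0.0296 and 0.0469) and Psme4 was not (adjusted p = 0.0509). Deviations from the group mean correlated at -0.10, 0.09 and -0.26 between libraries of the same number. Libraries of different number gave -0.18 to 0.27. Deviations within a group of 3 sum to 0, so these values cannot decide whether the numbers mark pairs. Counting error limits Psmb11 (11 to 39 counts).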
